A study of Mus musculus with 19 samples.

Results

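The phagocyte NADPH oxidase genes described here are 6 of the 57010 genes in a count table of mouse medial prefrontal cortex: Cybb, Cyba, Ncf1, Ncf4, Rac2 and Vav1. They were chosen by gene name, as subunits and activators of NADPH oxidase 2, with earlier results of these data known. Which values led to the choice is not recorded, but all 6 were called higher in the comparison of LPS with control mice, so the LPS differences below are a description and carry no p-value. All 6 passed the expression filter that left 17757 genes. Companion genes of the oxidase that were not chosen (Rac1, Rap1a, Rap1b, Cybc1 and Hvcn1) are given beside them, and all 5 of these were tested as well.

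The 19 libraries came from wild-type mice in 4 groups. Co-treated mice (n = 5) were gavaged with sedanolide, a phthalide found in celery seed, at 20 mg/kg for 8 days and were injected intraperitoneally with lipopolysaccharide (LPS), a bacterial cell wall component that triggers inflammation, at 1 mg/kg on 5 days in a row, the gavage leading by 3 days. LPS mice (n = 5) had the same injections with saline by gavage. Sedanolide mice (n = 5) had the same gavage with saline injected on 5 days. Control mice (n = 4; the labels number them 1, 2, 4 and 5) had saline by both routes. The labels give neither age nor sex, and do not state that the replicates of a group were separate animals, so p-values measure the spread between these samples only.

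NADPH oxidase 2 is the enzyme with which phagocytes make superoxide, by passing electrons from cytosolic NADPH across a membrane to oxygen. Its membrane core is a pair of proteins, the electron-carrying subunit encoded by Cybb and its stabilising partner encoded by Cyba. At rest regulatory subunits such as those encoded by Ncf1 and Ncf4 stay in the cytosol, and the enzyme works only once these subunits and a Rac GTPase dock on the core. In brain, microglia are the best-known source of this oxidase, and neutrophils, monocytes and macrophages carry it too.

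Library totals ran from 19.08 M to 24.32 M counts (M, mega). The unit CPM used below is a gene's count for each M counts of its library, after TMM factors adjusted the total for composition. Defining neuronal markers were at high levels in all groups, with the summed CPM of 7 neuron genes between 5065 and 7465. Markers of the olfactory bulb, which lies in front of the prefrontal cortex, set some libraries apart. Cdhr1, a gene of bulb output neurons, was between 57.66 and 444.8 CPM in 7 libraries (LPS replicates 2, 3 and 4, sedanolide replicates 3 and 4, control replicates 1 and 5) and between 2.288 and 9.917 CPM in the other 12, which include all 5 co-treated libraries. Results on the members that change without these 7 libraries are given both ways.

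In the LPS libraries the membrane core was higher than in control libraries, the electron-carrying subunit most. Cybb (X: 9301491-9354010, minus strand) was at 7.52, 13.39, 16.57, 13.36 and 16.35 CPM in LPS replicates 1 to 5, against 2.475, 1.484, 0.8351 and 1.503 CPM in control replicates 1, 2, 4 and 5. Every LPS library lay above every control library, and LPS replicate 1 was the lowest of its group. The log2 fold change was 3.07 (SE 0.29), a fold of 8.4. Cyba (8: 123151515-123159669, minus strand) was at 21.34, 20.84, 17.48, 17.09 and 21.87 CPM in the LPS libraries, against 8.128, 9.459, 7.123 and 8.602 CPM in the control libraries. These groups did not overlap either, and the log2 fold change of Cyba was 1.24 (SE 0.14), the smallest of the 6. The coordinates given beside gene names are those of the deposited table, whose genome build is not given in the sources used here.

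The organiser and adaptor subunits were higher in LPS libraries too. Ncf1 (5: 134248907-134258479, minus strand), which encodes the organiser subunit that carries the cytosolic complex to the membrane core, was at 31.12, 25.62, 28.09, 22.19 and 32.96 CPM in the LPS libraries, against 6.798, 8.717, 6.583 and 8.519 CPM in the control libraries. The groups did not overlap, and the log2 fold change was 1.87 (SE 0.12). Ncf1 overlaps Gtf2ird2 on the other strand, and whether the counting used strand is not stated. Gtf2ird2 itself averaged 17.35 ± 2.749 CPM in LPS libraries and 16.49 ± 2.577 CPM in control libraries (SD, n = 5 and 4). Ncf4 (15: 78129001-78146780, plus strand), whose product binds membrane phosphoinositides, had the lowest mean CPM of the 6 in both groups. It was at 3.572, 4.35, 5.017, 2.874 and 4.609 CPM in the LPS libraries, against 0.8128, 2.133, 0.786 and 1.42 CPM in the control libraries, a log2 fold change of 1.67 (SE 0.25). Its counts were 57 to 122 reads in LPS libraries and 16 to 46 reads in control libraries. These counts are the lowest of the 6, together with those of Cybb in libraries without LPS. Low counts alone do not rank the spread. Cybb had 160 to 403 reads in LPS libraries, yet it varied more there, relative to its mean, than Ncf4 did. The SE of Cybb in this comparison was also larger, at 0.29.

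The GTPase and its activator completed the pattern. Rac2 (15: 78443367-78456983, minus strand), the Rac GTPase of blood-derived and myeloid cells that switches the oxidase on, was at 18.24, 21.83, 21.43, 16.24 and 22.45 CPM in the LPS libraries, against 3.362, 4.173, 2.309 and 2.798 CPM in the control libraries. Its log2 fold change of 2.66 (SE 0.16), a fold of 6.32, was second to that of Cybb. Vav1 (17: 57586100-57635031, plus strand), an exchange factor that loads Rac with GTP, was at 15.32, 15.46, 15.87, 13.16 and 14.36 CPM in the LPS libraries, against 4.027, 5.749, 4.912 and 4.385 CPM in the control libraries. Its log2 fold change was 1.64 (SE 0.13). For both genes all 5 LPS libraries lay above all 4 control libraries.

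**Figure D1:**
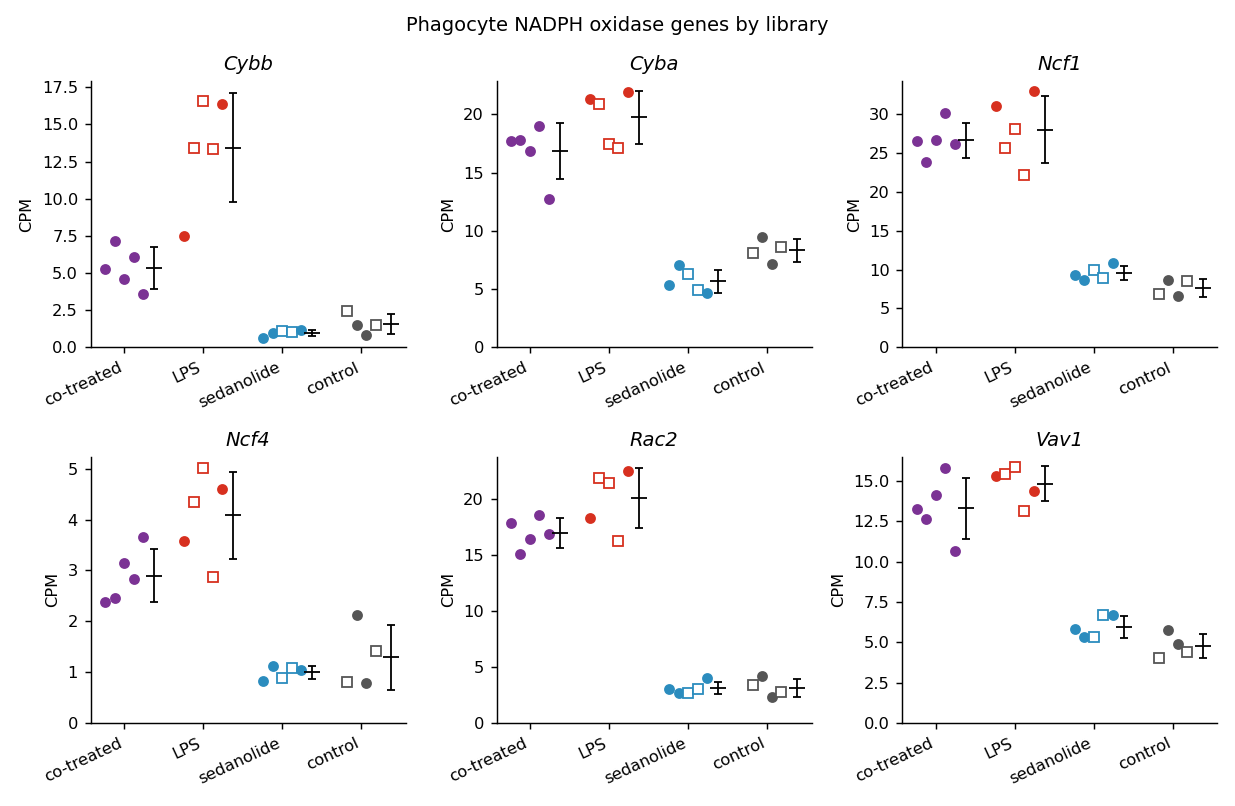
CPM of each member in every library, with groups from left to right co-treated, LPS, sedanolide and control; filled circles are libraries with Cdhr1 under 20 CPM, open squares the 7 libraries above it, and the dash with its bar is the mean ± SD. Cybb stands apart: its 5 co-treated libraries, at 3.577 to 7.173 CPM, lie below the LPS libraries, at 7.52 to 16.57 CPM, whereas for the other 5 members these groups overlap.

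Of all genes tested, 8.47% were called higher in LPS against control (edgeR's quasi-likelihood test, Benjamini-Hochberg adjusted p below 0.05), and 7.93% had LPS libraries all above the control libraries. All 6 members met both conditions, and nothing is read from this, since they were chosen with this contrast known. The median log2 fold change was 1.77 over the 6 and 0.00 over all genes tested. In this bulk tissue, more or fewer cells of a type and more or less RNA per cell cannot be told apart. With a score of 12 microglia markers as a covariate the log2 fold changes were 3.08 for Cybb, 0.95 for Cyba, 1.33 for Ncf1, 1.01 for Ncf4, 2.14 for Rac2 and 1.04 for Vav1, and Cyba and Ncf4 were no longer called. The score was 0.518 to 1.105 in LPS libraries and -1.5 to -0.111 in control libraries, with no overlap. The fit can thus hardly separate it from LPS, and a kept or lost call says little. Over all genes, 213 were called in it and 1938 in the main fit.

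Of the 5 companion genes that were not chosen, 2 were called higher in LPS libraries and 3 were not called. Hvcn1, the proton channel that balances the charge the oxidase moves, rose by 1.61 on the log2 scale (SE 0.23, edgeR adjusted p = 4.79e-05). With the microglia covariate its log2 fold change was no smaller, at 1.80, but its SE was 0.46 and it was not called (edgeR adjusted p = 0.0713). Hvcn1 overlaps Tctn1 on the other strand, whose log2 fold change was -0.17 (SE 0.29). Cybc1, a chaperone of the membrane core, averaged 18.08 CPM in LPS libraries and 15.0 CPM in control libraries, and its rise of 0.27 on the log2 scale (SE 0.075, edgeR adjusted p = 0.0242) did not hold under 9 of 27 alternative settings. It overlaps Hexdc on the other strand, whose log2 fold change was -0.01 (SE 0.08). Rac1, the Rac GTPase that most cells use, averaged 291.6 CPM in LPS libraries and 293.2 CPM in control libraries, a log2 difference of -0.01 (95% interval -0.15 to 0.13, edgeR adjusted p = 0.961). Rap1a and Rap1b, small GTPases that purify with the membrane core, had log2 differences of -0.26 and 0.02 (edgeR adjusted p = 0.206 and 0.931).

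The stretch just upstream of the annotated start is shown for the members with a RefSeq promoter entry. These are 4 of the 6 (GRCm38.p6): Ncf1, Cyba, Vav1 and Cybb. The promoter coordinates do not line up with the gene coordinates of the deposited table, so they are not to be placed against each other. Each sequence is the 160 bases before the start, 5′ to 3′ on the gene's own strand, and capitals mark a match to any motif searched.
Cybb (chrX:9469325-9469484, minus): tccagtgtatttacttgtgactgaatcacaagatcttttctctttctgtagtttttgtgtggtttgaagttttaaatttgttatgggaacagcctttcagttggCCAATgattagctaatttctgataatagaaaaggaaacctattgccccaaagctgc
Cyba (chr8:122432941-122433100, minus): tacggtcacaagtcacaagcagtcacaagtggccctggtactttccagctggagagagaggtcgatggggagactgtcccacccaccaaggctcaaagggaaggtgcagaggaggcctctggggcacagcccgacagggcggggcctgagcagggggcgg
Ncf1 (chr5:134229626-134229785, minus): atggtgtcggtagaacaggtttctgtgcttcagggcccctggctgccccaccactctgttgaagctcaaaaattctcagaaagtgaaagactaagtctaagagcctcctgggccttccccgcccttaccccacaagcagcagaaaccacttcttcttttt
Vav1 (chr17:57278940-57279099, plus): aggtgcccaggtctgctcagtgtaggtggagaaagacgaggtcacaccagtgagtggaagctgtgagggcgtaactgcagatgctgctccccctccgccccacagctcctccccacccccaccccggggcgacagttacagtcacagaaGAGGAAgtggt

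On both strands of the 250 bases upstream, 3 motifs were searched. GAGGAA, a core bound by the myeloid factor PU.1, was matched in Vav1 at -11 to -6, and 23.3% of the 32851 promoter windows of the table hold it. CCAAT, the box bound by NF-Y, was matched in Cybb at -56 to -52, and 33.8% of windows hold it. The NF-kB motif was matched in none of the 4, and 3.9% of windows hold it. The matches do not overlap each other, and no motif was shared between members. A match describes the letters of the window and not a site in use.

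Sedanolide given with LPS went with lower Cybb, and the other members were not called. Cybb was at 5.272, 7.173, 4.562, 6.103 and 3.577 CPM in co-treated replicates 1 to 5, against 7.52, 13.39, 16.57, 13.36 and 16.35 CPM in the LPS libraries. All 5 co-treated libraries lay below all 5 LPS libraries, the closest pair being co-treated replicate 2 and LPS replicate 1. Cybb averaged 5.337 ± 1.384 CPM in co-treated libraries and 13.44 ± 3.651 CPM in LPS libraries (SD, n = 5 each). The log2 fold change was -1.33 (SE 0.24, 95% interval -1.81 to -0.86, edgeR adjusted p = 0.00682). Of all genes tested, 1.68% were called lower in this comparison and 4.6% had co-treated libraries all below the LPS libraries. The LPS libraries enter both this comparison and the one with control, so the differences are not independent of the choice of members.

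The call for Cybb depended on how the olfactory bulb signal was treated. With an index of 4 bulb markers as a covariate the log2 fold change was -1.06 (edgeR adjusted p = 0.0533), and in the 12 libraries with Cdhr1 under 20 CPM, which keep LPS replicates 1 and 5 only, it was -1.14 (edgeR adjusted p = 0.17). The LPS libraries of this subset were at 7.52 and 16.35 CPM and the co-treated libraries at 3.577 to 7.173 CPM. Leaving out each library in turn gave -1.48 to -1.22, all called.

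The partner subunit and the cytosolic subunits differed less. Cyba was at 17.74, 17.78, 16.88, 19.02 and 12.76 CPM in the co-treated libraries, against 21.34, 20.84, 17.48, 17.09 and 21.87 CPM in the LPS libraries. The ranges overlapped, and the log2 difference was -0.23 (95% interval -0.47 to 0.02, edgeR adjusted p = 0.307). Ncf1 was at 26.5, 23.85, 26.66, 30.16 and 26.2 CPM in the co-treated libraries, inside the LPS range of 22.19 to 32.96 CPM, with a log2 difference of -0.07 (95% interval -0.28 to 0.14, edgeR adjusted p = 0.733). Ncf4 was at 2.384, 2.464, 3.151, 2.831 and 3.663 CPM in the co-treated libraries, against an LPS range of 2.874 to 5.017 CPM. Its log2 difference was -0.50 (95% interval -0.93 to -0.06), which did not pass after adjustment (edgeR adjusted p = 0.226).

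The GTPase and the exchange factor overlapped likewise. Rac2 was at 17.83, 15.09, 16.41, 18.53 and 16.85 CPM in the co-treated libraries, against an LPS range of 16.24 to 22.45 CPM (log2 difference -0.24, 95% interval -0.50 to 0.02, edgeR adjusted p = 0.309). Vav1 was at 13.25, 12.67, 14.15, 15.83 and 10.69 CPM in the co-treated libraries, against an LPS range of 13.16 to 15.87 CPM (log2 difference -0.16, 95% interval -0.38 to 0.07, edgeR adjusted p = 0.435). All 6 members had a negative difference, and the median over the 6 was -0.24 on the log2 scale, beside -0.01 over all genes tested. None of the 5 companion genes was called.

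Cybb was set against each of the other members as a ratio within a library, a comparison chosen after its values were seen. The log2 ratio of Cybb to Cyba, in CPM, averaged -1.68 ± 0.23 in co-treated libraries and -0.60 ± 0.55 in LPS libraries (SD, n = 5 each). The difference was -1.09. The ratio of Cybb to Ncf1 differed by -1.26, to Rac2 by -1.08, to Vav1 by -1.16 and to Ncf4 by -0.83 on the log2 scale. Since Cybb was picked for its difference between these same libraries, the ratios are a description and carry no p-value. Without the bulb-rich LPS replicates 2, 3 and 4, the difference for Cybb over Cyba was -0.72, with the LPS ratios at -1.50 and -0.42.

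**Figure D2:**
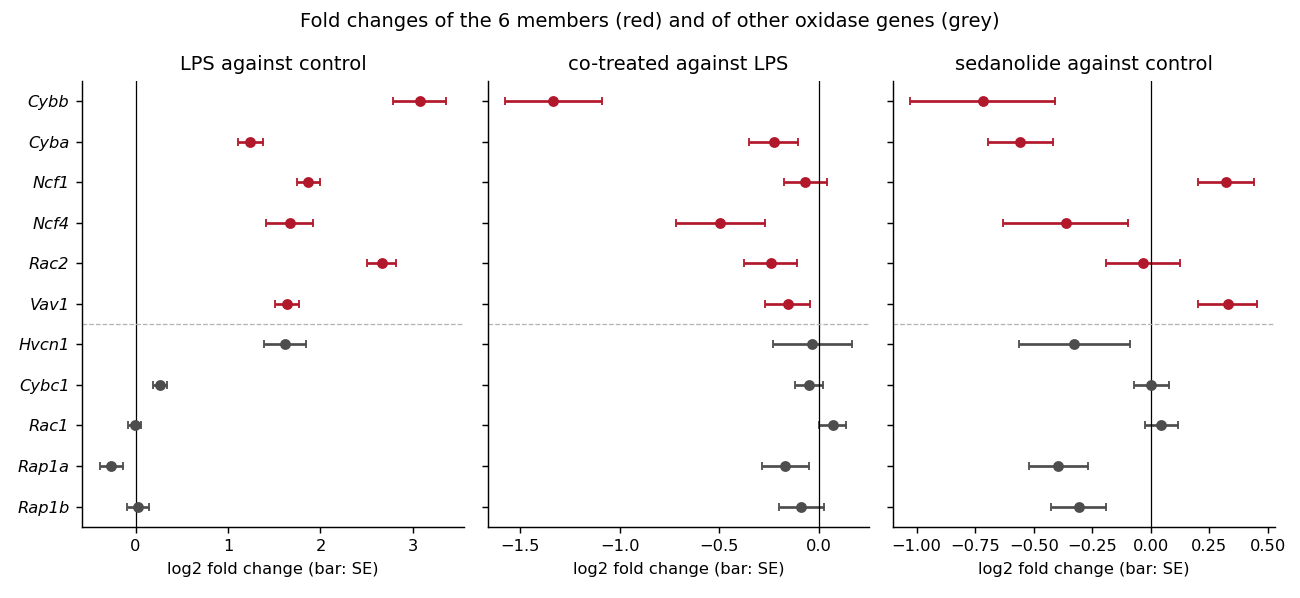
Log2 fold changes with their SE for the 6 members (red, above the dashed line) and the 5 companion genes (grey) in LPS against control, co-treated against LPS, and sedanolide against control; the horizontal scales differ between panels. In the middle panel Cybb lies at -1.33 and the other members between -0.50 and -0.07.

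Co-treated libraries stayed above the libraries that had no LPS for all 6 members. Against control, the log2 fold changes were 1.74 for Cybb, 1.01 for Cyba, 1.80 for Ncf1, 1.17 for Ncf4, 2.42 for Rac2 and 1.48 for Vav1. Against sedanolide alone they were 2.46 for Cybb, 1.57 for Cyba, 1.48 for Ncf1, 1.54 for Ncf4, 2.45 for Rac2 and 1.16 for Vav1. All 6 were called higher in both comparisons, where 6.38% of genes were called higher against control and 5.09% against sedanolide. Of the companion genes, Hvcn1 was called higher in both (log2 fold change 1.58 against control and 1.90 against sedanolide, edgeR adjusted p = 0.000117 and 5.67e-06). Rap1a was called lower against control (-0.43, edgeR adjusted p = 0.0339), and not against sedanolide (-0.04, edgeR adjusted p = 0.94). All 4 bulb markers were called lower against control. In the fits with the microglia score as a covariate, 3 members (Ncf1, Rac2 and Vav1) were called against control and 4 (Cybb, Cyba, Ncf1 and Rac2) against sedanolide. The score was 0.209 to 1.225 in co-treated libraries, above every control and sedanolide library. These fits can thus hardly separate it from the groups, and a lost call says little. Against control, the log2 fold change of Cybb hardly moved in that fit, to 1.75, while its SE was 0.56 (edgeR adjusted p = 0.253). Those of Cyba and Ncf4 were smaller in it, at 0.73 and 0.55 (edgeR adjusted p = 0.294 and 0.734). Against sedanolide, Ncf4 was at 0.95 and Vav1 at 0.63 in it (edgeR adjusted p = 0.323 and 0.0605). In libraries with Cdhr1 under 20 CPM, Ncf4 was not called against control. These comparisons share libraries with the preceding ones and are given side by side only.

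Sedanolide alone went with lower Cyba. Cyba was at 5.354, 7.044, 6.314, 4.951 and 4.659 CPM in sedanolide replicates 1 to 5, against 8.128, 9.459, 7.123 and 8.602 CPM in control replicates 1, 2, 4 and 5. All 5 sedanolide libraries lay below all 4 control libraries, although sedanolide replicate 2 and control replicate 4 were close. The log2 fold change was -0.56 (SE 0.14, 95% interval -0.83 to -0.29, edgeR adjusted p = 0.0277). Of all genes tested, 2.11% were called lower and 3.56% had sedanolide libraries all below the control libraries. The size held under the alternatives, at -0.65 to -0.49, but the call did not. Settings that lost it include the 12 libraries with Cdhr1 under 20 CPM (edgeR adjusted p = 0.29), a fit of these groups alone (edgeR adjusted p = 0.108), and fits without control replicate 1, 2 or 5 or sedanolide replicate 1, 4 or 5 (edgeR adjusted p = 0.0504 to 0.0995).

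The other members were not called in sedanolide against control, and their differences had both signs. Cybb was at 0.5949, 0.9294, 1.067, 1.049 and 1.188 CPM in the sedanolide libraries, against 0.8351 to 2.475 CPM in the control libraries (log2 difference -0.72, 95% interval -1.32 to -0.11, edgeR adjusted p = 0.156). These levels rest on 13 to 26 reads per sedanolide library and 17 to 67 reads per control library. Ncf1 was at 9.336, 8.707, 9.915, 8.938 and 10.87 CPM in the sedanolide libraries, against 6.583 to 8.717 CPM in the control libraries (log2 difference 0.32, 95% interval 0.08 to 0.56, edgeR adjusted p = 0.11). Vav1 was at 5.812, 5.332, 5.336, 6.714 and 6.669 CPM in the sedanolide libraries, against 4.027 to 5.749 CPM in the control libraries (log2 difference 0.33, 95% interval 0.08 to 0.58, edgeR adjusted p = 0.119). Ncf4 was at 0.8238 to 1.125 CPM in sedanolide libraries and 0.786 to 2.133 CPM in control libraries (log2 difference -0.36, 95% interval -0.89 to 0.16, edgeR adjusted p = 0.408). Rac2 was at 2.641 to 3.974 CPM in sedanolide libraries and 2.309 to 4.173 CPM in control libraries (log2 difference -0.03, 95% interval -0.34 to 0.28, edgeR adjusted p = 0.919). None of the companion genes was called. Rap1a had the largest difference of these, -0.39 on the log2 scale (95% interval -0.64 to -0.15, edgeR adjusted p = 0.0693), and DESeq2 called it (adjusted p = 0.0357).

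Whether sedanolide differed in its association with LPS and without it was tested as an interaction, the difference with LPS minus the difference without. No member was called, where 0.586% of genes were. For Cybb the difference was -1.33 with LPS and -0.72 without it, and the interaction was -0.61 on the log2 scale (95% interval -1.39 to 0.16, edgeR adjusted p = 0.476). For Cyba the differences were -0.23 with LPS and -0.56 without it, and the interaction was 0.33 (95% interval -0.03 to 0.69, edgeR adjusted p = 0.407). The interactions of Vav1 (-0.48, 95% interval -0.82 to -0.15), Ncf1 (-0.39, 95% interval -0.71 to -0.07), Rac2 (-0.21, 95% interval -0.61 to 0.20) and Ncf4 (-0.13, 95% interval -0.82 to 0.56) had edgeR adjusted p-values of 0.182, 0.242, 0.679 and 0.898. An effect of sedanolide limited to LPS-injected mice is not shown for any member.

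Levels can be compared between genes only per length, here as CPM per kilobase of the union of exons in GENCODE M21. Whether the counting used this annotation is not given in the sources used here. In co-treated libraries Cyba was highest at 16.2 ± 2.314, followed by Ncf1 at 7.282 ± 0.6165, Rac2 at 5.461 ± 0.4271, Vav1 at 3.612 ± 0.5139, Ncf4 at 1.435 ± 0.2604 and Cybb at 0.919 ± 0.2383 CPM per kilobase (SD, n = 5). The ranges of Ncf4 and Cybb overlapped slightly, at 1.18 to 1.813 for Ncf4 and 0.6159 to 1.235 for Cybb. In LPS libraries Cyba was again highest at 18.98 ± 2.174, followed by Ncf1 at 7.643 ± 1.172, Rac2 at 6.458 ± 0.8631, Vav1 at 4.023 ± 0.2951, Cybb at 2.314 ± 0.6286 and Ncf4 at 2.022 ± 0.4246 CPM per kilobase (SD, n = 5). In LPS libraries Ncf1 and Rac2 overlapped in range, as did Cybb and Ncf4. In sedanolide libraries Cyba was at 5.452 ± 0.9551 and Cybb at 0.1663 ± 0.039 CPM per kilobase. In control libraries Cyba was at 8.015 ± 0.9374, Ncf1 at 2.09 ± 0.3056, Vav1 at 1.293 ± 0.2029, Rac2 at 1.018 ± 0.258, Ncf4 at 0.6376 ± 0.3143 and Cybb at 0.2711 ± 0.1164 CPM per kilobase (SD, n = 4). Rac2 stood above Vav1 in LPS libraries and below it in control libraries, although the ranges of Rac2 and Vav1 overlap in control libraries. Rac1 was at 64.85 ± 1.794 CPM per kilobase in LPS libraries, and at 65.2 ± 6.063 in control libraries.

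Cybb was lower than Cyba per kilobase in every library. The ratio of Cybb to Cyba averaged 0.0562 (range 0.0483 to 0.0722) in co-treated libraries, 0.124 (0.0631 to 0.17) in LPS libraries, 0.0314 (0.0199 to 0.0456) in sedanolide libraries and 0.0337 (0.021 to 0.0545) in control libraries. LPS replicate 1 was the only LPS library within the co-treated range. Against the summed CPM of 12 microglia markers, Cybb was at 0.52 ± 0.152 CPM per 100 CPM in co-treated libraries and 1.24 ± 0.352 in LPS libraries, and at 0.154 ± 0.0269 in sedanolide libraries and 0.278 ± 0.128 in control libraries. Ncf1 on the same scale was at 2.59 ± 0.106 in co-treated libraries and 2.56 ± 0.235 in LPS libraries, and at 1.54 ± 0.101 in sedanolide libraries and 1.34 ± 0.144 in control libraries. On this scale the mean of each member was higher in LPS than in control libraries. The nearest were those of Cyba, at 1.81 ± 0.0953 CPM per 100 CPM in LPS libraries and 1.46 ± 0.0946 in control libraries. For Ncf4 the ranges overlapped, at 0.295 to 0.478 in LPS libraries and 0.15 to 0.308 in control libraries. Csf1r is the largest part of the microglia sum, averaging 320.1 CPM in LPS libraries and 120.8 CPM in control libraries. Sall1, another of the 12, varied widely outside the co-treated group. It was at 30.17 to 40.73 CPM in co-treated, 41.48 to 110.9 in LPS, 19.27 to 97.2 in sedanolide and 19.11 to 135.4 in control libraries. Sall1 also enters the microglia score used as a covariate.

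**Figure D3:**
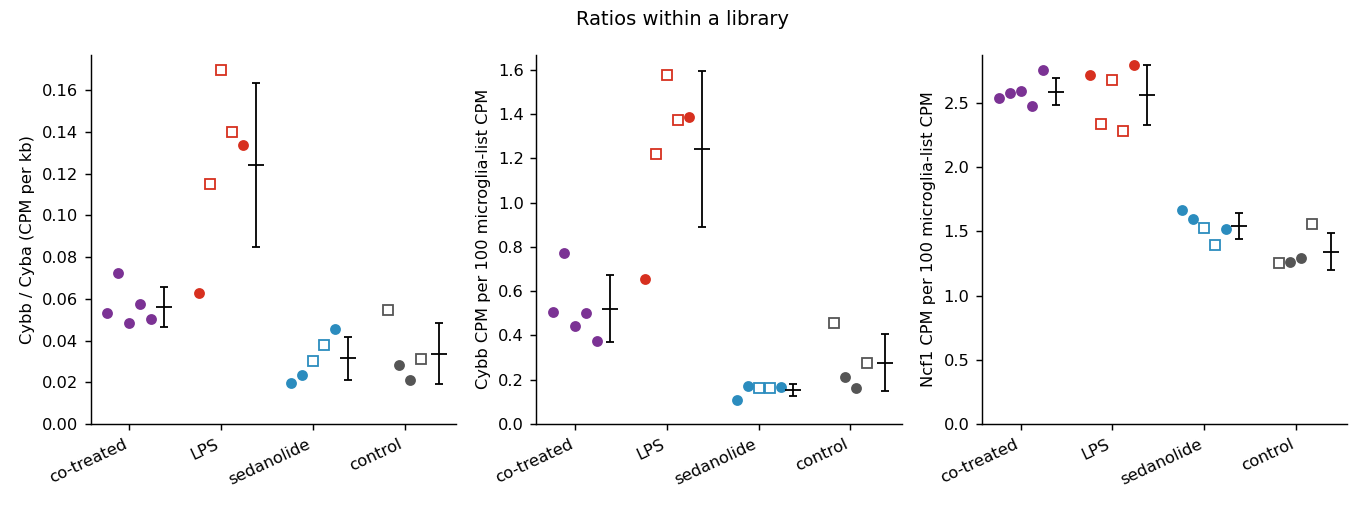
Ratios within a library: Cybb over Cyba in CPM per kilobase (left), Cybb CPM per 100 CPM of the summed microglia markers (middle) and Ncf1 CPM on that scale (right), with groups from left to right co-treated, LPS, sedanolide and control, symbols by Cdhr1 level (filled circles under 20 CPM, open squares above) and mean ± SD. On both scales the co-treated values of Cybb lie under those of LPS replicates 2 to 5, with LPS replicate 1 among them, while Ncf1 overlaps between these groups.

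The members varied together across libraries, and less so within groups. Over the 19 libraries Pearson's r between members in log2 CPM was 0.872 to 0.978 in the 15 pairs. Within groups, after subtracting group means, it was 0.017 to 0.599, and 0.017 to 0.411 in the 5 pairs with Cybb. These are descriptions, since all values share libraries and depth, and the members were chosen with results of these data known. The 5 genes most like the mean z-score of the members, among 12866 candidates, were Rab32 (r = 0.994, 0.773 within groups), Ctsh (0.990, 0.763 within groups), Pik3ap1 (0.989, 0.788 within groups), Apobec3 (0.988, 0.787 within groups) and Lcp1 (0.988, 0.809 within groups), over 19 libraries. Rab32 encodes a small GTPase of endolysosomal organelles, Ctsh a lysosomal protease, Pik3ap1 an adaptor of phosphoinositide 3-kinase, Apobec3 a cytidine deaminase that restricts viruses and Lcp1 the actin-bundling protein L-plastin.

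RNA of many of the signalling proteins that switch the oxidase on was higher with LPS. The list of these genes and the lists below were chosen with earlier results of these data known. Their counts are a description, and no enrichment is read from them. Of 23 activators upstream of the oxidase, 14 were called higher in LPS libraries and none lower, beside 8.47% of all genes tested called higher, with a median log2 fold change of 0.86. Among them were the kinases Syk, which acts below Fc receptors and integrins (log2 fold change 1.68, edgeR adjusted p = 3.73e-07) and Fgr (4.36, edgeR adjusted p = 5.03e-07), and Dock2, a Rac exchange factor of leukocytes (1.66, edgeR adjusted p = 1.42e-06). Against LPS libraries, 2 of the 23 fell in co-treated libraries, beside 1.68% of all genes tested: Fgr by 1.45 and Syk by 0.58 on the log2 scale (edgeR adjusted p = 0.0159 and 0.0356). Fgr averaged 1.24 ± 0.364 CPM in co-treated libraries and 3.41 ± 0.949 CPM in LPS libraries. The falls of Fgr and Syk are given without a fit that treats the olfactory bulb signal. In the 12 libraries with Cdhr1 under 20 CPM, 35 genes in all were called in co-treated against LPS. In the main fit 350 were called. None of the 23 was called in sedanolide against control.

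Genes for receptors that trigger the oxidase moved in the same comparison. This list too was chosen with earlier results known, so its share called is a description. Not every gene of the list encodes a trigger, since it holds Fcgr2b, an inhibitory Fc gamma receptor. Fcgr2b was among those called higher with LPS (log2 fold change 1.84, edgeR adjusted p = 2.43e-06). Of 20 tested, 19 were called higher in LPS libraries and none lower, beside the same 8.47% of all genes, with a median log2 fold change of 1.55. Among them were Itgb2, the shared beta chain of leukocyte integrins (2.34, edgeR adjusted p = 1.72e-08), Cd14, a co-receptor for LPS (2.04, edgeR adjusted p = 1.72e-08), and the Fc gamma receptors Fcgr4 (4.43, edgeR adjusted p = 2.78e-08) and Fcgr3 (1.76, edgeR adjusted p = 3.94e-08). Against LPS libraries, 3 of the 20 fell in co-treated libraries, beside 1.68% of all genes: Fpr2, a formyl peptide receptor, by 1.93, Itgb2 by 0.56 and Fcgr4 by 0.91 on the log2 scale (edgeR adjusted p = 0.0166, 0.0491 and 0.0495). These 3 falls likewise are given without a fit that treats the bulb signal. None of the 20 was called in sedanolide against control.

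Most genes that supply the oxidase or clear its products were not called with LPS, and the counts called higher, 3 of 16 and 2 of 9, are to be read beside 8.47% of all genes. Of 16 genes for removal of superoxide and peroxide, 3 rose with LPS: Gpx3, a secreted glutathione peroxidase (0.59, edgeR adjusted p = 0.0185), Sod3, the extracellular superoxide dismutase (0.70, edgeR adjusted p = 0.0187), and Prdx6 (0.30, edgeR adjusted p = 0.0478). Gpx3 fell by 0.58 on the log2 scale in co-treated against LPS libraries (edgeR adjusted p = 0.049), the only 1 of the 16 called there (1.68% of all genes were called lower). Prdx1, a peroxiredoxin, fell by 0.34 in sedanolide against control libraries (edgeR adjusted p = 0.0454, where 2.11% of all genes were called lower). Both falls are given without a fit that treats the bulb signal. Of 9 genes of NADPH supply, H6pd, the hexose-6-phosphate dehydrogenase of the endoplasmic reticulum (0.80, edgeR adjusted p = 0.00123), and Nadk, NAD kinase (0.26, edgeR adjusted p = 0.0325), rose with LPS, and none was called in co-treated against LPS or sedanolide against control. Of 9 genes of other NADPH oxidases, 2 were expressed enough to be tested and neither was called. Their summed level was 0.7995 to 1.925 CPM in co-treated libraries and 1.363 to 1.866 CPM in LPS libraries, with Noxa1 and Duoxa2 at 0 in every library of both groups.

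**Figure D4:**
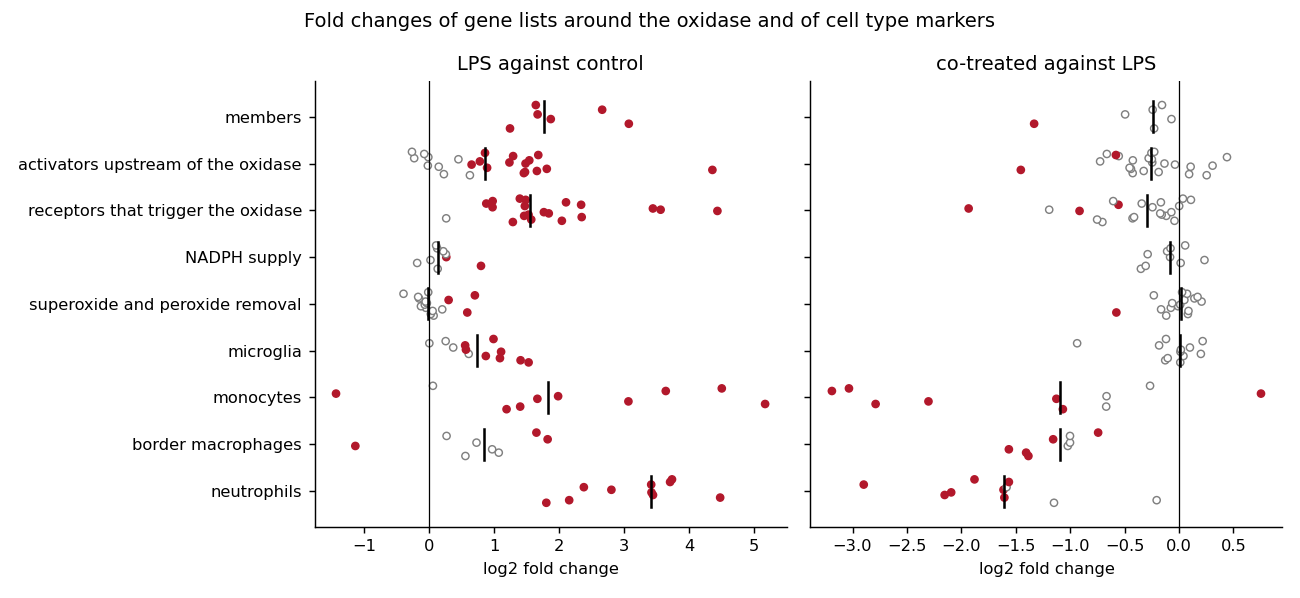
Log2 fold changes of the tested genes of each list in LPS against control (left) and co-treated against LPS (right), 1 point a gene, filled red where called by edgeR and open where not, with the list's median as a black bar; the horizontal scales differ. With co-treatment the microglia markers lie around 0.01 at the median and the neutrophil markers around -1.61.

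Markers of several cell types moved with the members, and their part in the results was not tested beyond the fits with a microglia or bulb covariate given above. With LPS, 8 of 12 microglia markers were called higher, 10 of 10 tested neutrophil markers (Ly6g, Mpo and Elane were too low to test), 8 of 10 monocyte markers with 1 lower (Nr4a1), 5 of 8 tested lymphocyte markers, 2 of 8 border macrophage markers with 1 lower (Lyve1), and 6 of 6 endothelial markers. Of all genes tested, 8.47% were called higher. Nr4a1 is not specific to monocytes, since active neurons express it too. It averaged 75.36 CPM in LPS libraries and 203.7 CPM in control libraries, beside 2.04 and 0.7588 CPM for Ccr2. Its calls, here and below, are therefore not read as calls of monocytes. No marker of neurons, astrocytes, oligodendrocytes or cortical layers was called in this comparison. Of 5 red blood cell markers, Hba-a2, an alpha globin gene, was called lower (-1.95, edgeR adjusted p = 0.0161), and the median over the 5 was -1.71 on the log2 scale. Their sum was at 2.397 to 179.5 CPM in LPS libraries and 192.3 to 288.9 CPM in control libraries, with no overlap. The summed microglia markers were at 972.9 to 1179 CPM in LPS libraries and 509.2 to 693.1 CPM in control libraries, and the summed neutrophil markers at 71.68 to 78.49 CPM in LPS libraries and 8.686 to 14.05 CPM in control libraries. Csf3r made up much of the neutrophil sum, averaging 26.02 CPM in LPS libraries and 5.851 CPM in control libraries. The neutrophil markers Ly6g and Elane averaged 0.0517 and 0.0896 CPM in LPS libraries, a few reads per library at most.

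Between co-treated and LPS libraries, where Cybb differed, none of the 12 microglia markers was called, and their sum was at 926.2 to 1220 CPM in co-treated libraries and 972.9 to 1179 CPM in LPS libraries. As a reference for each list here, 1.68% of all genes tested were called lower. Of 10 tested neutrophil markers 7 were called lower, and the sum was at 33.53 to 45.19 CPM in co-treated libraries and 71.68 to 78.49 CPM in LPS libraries. Much of that sum is Csf3r, which was not called. It was at 22.58 ± 2.966 CPM in co-treated libraries and 26.02 ± 4.465 CPM in LPS libraries (SD, n = 5 each). Of 10 monocyte markers 6 were called lower and 1 (Nr4a1) higher, with sums of 262.3 to 286.2 CPM in co-treated libraries and 302.7 to 484.0 CPM in LPS libraries. Most of that sum is Fn1, at 113.4 ± 13.49 CPM in co-treated libraries and 247.6 ± 50.44 CPM in LPS libraries, and Nr4a1, at 127.0 ± 10.21 CPM in co-treated libraries and 75.36 ± 14.4 CPM in LPS libraries (SD, n = 5 each), so it says little of the other 8. Of 8 border macrophage markers 5 were called lower, with sums of 40.47 to 57.81 CPM in co-treated libraries and 66.19 to 135.7 CPM in LPS libraries. Most of that sum is Stab1, among those called, at 33.71 ± 3.699 CPM in co-treated libraries and 56.39 ± 13.27 CPM in LPS libraries. Of 6 endothelial markers 2 (Tie1 and Esam) were called lower, and of 8 lymphocyte markers none was called. No red blood cell marker was called, and their sum was at 28.21 to 96.02 CPM in co-treated libraries and 2.397 to 179.5 CPM in LPS libraries. The olfactory bulb markers summed to 3.036 to 8.016 CPM in co-treated libraries and 8.146 to 291.9 CPM in LPS libraries. The marker calls of this comparison are given without a fit that treats this bulb signal. With a score of the 12 microglia markers as a covariate, the log2 fold change of Cybb was -1.33 (edgeR adjusted p = 0.00773). The part of neutrophils, monocytes and border macrophages in the Cybb difference was not tested.

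Between sedanolide and control libraries, where Cyba differed, no microglia or neutrophil marker was called. The summed microglia markers were at 545.5 to 717.8 CPM in sedanolide libraries and 509.2 to 693.1 CPM in control libraries, and the summed neutrophil markers at 6.261 to 13.84 CPM in sedanolide libraries, with Ly6g and Elane at 0 in all 5, and 8.686 to 14.05 CPM in control libraries. Most of the neutrophil sum was Csf3r, averaging 6.989 CPM in sedanolide libraries and 5.851 CPM in control libraries. Of the border macrophage markers Ms4a7 was called lower, and of the monocyte list Nr4a1, which is not specific to monocytes. The neuron marker Rbfox3 was called higher (0.29, edgeR adjusted p = 0.046) and the layer marker Foxp2 lower (-0.79, edgeR adjusted p = 0.0199). No red blood cell marker was called, and their sum was at 94.18 to 232.0 CPM in sedanolide libraries and 192.3 to 288.9 CPM in control libraries. Bulb markers summed to 4.302 to 328.4 CPM in sedanolide libraries and 7.663 to 719.2 CPM in control libraries. Per 100 CPM of microglia markers, Cyba was at 0.928 ± 0.243 CPM in sedanolide libraries and 1.46 ± 0.0946 CPM in control libraries (SD, n = 5 and 4).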

How the data were processed

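Poly(A) RNA of mouse medial prefrontal cortex was sequenced from strand-marking Illumina libraries, per the labels' protocols. The authors deposited raw gene-level counts as 1 table. Tools named in the submitters' processing notes, without versions, were DESeq2, RSEM, StringTie, HISAT2 and fastp. The deposited count table itself bears the name of featureCounts, a read counter. The genome build, and whether the counting used strand, are not given in the sources used here.

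The test was edgeR 4.0.16 under R 4.3.3 (TMM, default expression filter by group, robust quasi-likelihood test, two-sided, all 19 libraries in 1 model with a mean per group), with Benjamini-Hochberg adjustment over 17757 genes. The SE is the size of the log2 change divided by root F, and 95% intervals are 1.96 SE either side. The procedure was also run on simulated counts with known fold changes. Members and gene lists were chosen with earlier results of these data known, and promoter motifs with the sequences in view. All members and companion genes are named, and from each list at most 4 called genes per comparison and direction, by smallest p; marker lists are given mainly as counts and sums. Some results under this rule are not reported here. Alternatives were RLE factors, no filter, DESeq2 1.42.0, the replicate number as a block, a bulb or a microglia covariate, libraries with Cdhr1 under 20 CPM, only the groups compared, and leaving out each library.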

Additional observations from a re-analysis of the deposited data

How the results depend on the processing

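Of 966 recomputed member values, 941 kept their direction and side of the threshold, 19 lost their call and 6 turned sign. Of the members, 1 was called in co-treated against LPS, and 0 with the bulb covariate or in libraries with Cdhr1 under 20 CPM. In sedanolide against control 1 was called, and 0 with the replicate block, with Cdhr1 under 20 CPM or with only the groups compared, and 0 to 1 when each library was left out. In co-treated against control 6 were called, and 3 with the microglia covariate, whose count was added after seeing the data. The cause was not tested. The replicate block left the calls of members in the other comparisons as they were (Cybb in co-treated against LPS at -1.32, edgeR adjusted p = 0.0394). Of 27 pairs of same-numbered libraries in different groups, 5 had deviations correlated above 0.1, so the numbers were not taken to pair samples.

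Values that were not called turned sign as follows, on the log2 scale. In LPS against control Rac1 was at 0.0049 with the replicate block and at -0.0638 to 0.0445 when each library was left out, and Rap1b at -0.0236 to 0.0859. In co-treated against LPS Hvcn1 was at 0.248 with the bulb covariate, 0.0017 with Cdhr1 under 20 CPM and -0.133 to 0.0209 when each library was left out. In sedanolide against control Hvcn1 was at 0.0932 with Cdhr1 under 20 CPM, Rac2 at -0.151 to 0.124 and Rac1 at -0.0113 to 0.0974 when each library was left out. Cybc1 in that comparison was at -0.0027 with RLE factors, -0.0134 with no filter, -0.0009 with DESeq2, -0.0098 with the replicate block, -0.0518 with Cdhr1 under 20 CPM, -0.0054 with the microglia covariate and -0.0352 to 0.0323 when each library was left out. The interaction of Ncf4 was at 0.106 with Cdhr1 under 20 CPM and -0.477 to 0.0448 when each library was left out.

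Counts of calls over all genes moved as well: 1938 (213 to 2798 over the alternatives) in LPS against control, 350 (35 to 912) in co-treated against LPS, 943 (8 to 1892) in sedanolide against control, 1965 (63 to 2907) in co-treated against control, 990 (167 to 1247) in co-treated against sedanolide and 104 (20 to 447) in the interaction. Low counts limit Cybb and Ncf4 most, at 13 to 67 and 16 to 46 reads per library without LPS.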
